A study of Mus musculus with 4 samples.

Results

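The perigonadal list from BCL6 precipitation in mouse adipocyte nuclei held 3956 peaks, and 2912 of them (73.6%) were low and overlapped no peak of the inguinal list. A peak was taken as low when its deposited score was below that of 13 tags, that is at 12 or fewer sequenced tags, and as unpartnered when it overlapped no peak of the inguinal list by 1 bp or more. Both lists together held 5741 peaks, 1785 of them inguinal. The remaining perigonadal peaks were 94 low peaks with an inguinal partner, 536 higher peaks without one and 414 higher peaks with one. The peaks were selected on the deposited score and on the missing partner, so both are given as description, and the comparisons below use their position, annotation, neighbours and sequence.

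The chromatin came from C57BL/6 mice carrying Adipoq-Cre and a Cre-dependent Sun1-sfGFP-myc tag, so that adipocytes, the cells in which the adiponectin promoter drives Cre, carry a tagged nuclear membrane. All groups shared this genotype, and no animal without BCL6 was among the samples. Inguinal (subcutaneous) and perigonadal (visceral) fat was fixed with disuccinimidyl glutarate and formaldehyde, nuclei were taken up on beads against myc, and BCL6 was pulled from the sheared chromatin with a polyclonal antibody raised for the purpose in guinea pig. Each depot had 1 BCL6 library and 1 input library without antibody, 4 samples in all. The input libraries were not analysed here, and the number, age, sex and pooling of the animals are not given in the sources used here. With 1 library per depot there was no replicate check and no test between depots.

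BCL6 is a zinc finger repressor that recruits corepressor complexes with histone deacetylases. It is best known for its part in germinal centre B cells, and in liver it shares sites with STAT5, the transcription factor activated by growth hormone, which prefers similar DNA letters. The BCL6 core searched here was TTCCTNGAA on either strand, in which N is any base. The wider palindrome TTCNNNGAA, the STAT type, contains every match of the core.

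Few of the low unpartnered peaks could be read as sequence, since only promoter windows were at hand, which run from 250 bases before to 50 after each annotated start (RefSeq, GRCm38.p6, the assembly behind mm10). Among the 2912 peaks, 57 reached into 67 such windows of 63 genes. The core stood in 6 of these windows, and the letters are shown because they let the low sites be set beside the tallest ones. Upstream stretches that lie both in the window and in the peak are printed 5′ to 3′ on the strand of the gene, with core matches in capitals. The Zfp458 stretch is chr13:67269125-67269244 on the minus strand, in a peak of 11 tags at a zinc finger gene. The Gm34907 stretch is chr14:103463805-103463923 on the plus strand, also in a peak of 11 tags, at a gene known only by its model name. The Hivep1 stretch, chr13:42051771-42051869 on the plus strand, lies in a peak of 12 tags at the gene of a zinc finger protein that binds enhancers, and shows a promoter without a match.
Zfp458: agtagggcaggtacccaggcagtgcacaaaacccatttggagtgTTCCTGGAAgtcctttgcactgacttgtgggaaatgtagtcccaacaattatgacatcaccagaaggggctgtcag
Gm34907: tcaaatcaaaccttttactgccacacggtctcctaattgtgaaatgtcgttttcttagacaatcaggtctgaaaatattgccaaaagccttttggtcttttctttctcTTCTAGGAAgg
Hivep1: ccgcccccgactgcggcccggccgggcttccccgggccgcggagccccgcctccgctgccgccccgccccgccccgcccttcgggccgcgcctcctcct
The Zfp458 match lies 206 bases upstream of the start and the Gm34907 match 11 bases upstream. The Hivep1 stretch is 87.9% G and C, against 50% for Zfp458 and 37.8% for Gm34907.

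The other matches at low unpartnered peaks lie just downstream of a start and are printed with their nearest bases only. They belong to Lhx3, a homeobox gene of pituitary development (12 tags, chr2:26208223-26208231, minus strand), Gm46952, a gene model (11 tags, chr6:8345542-8345550, minus strand), Zcwpw2, which encodes a histone-reading zinc finger protein (10 tags, chr9:118040836-118040844, minus strand), and Etv6, an ETS-family repressor gene (9 tags, chr6:134035721-134035729, plus strand).
Lhx3: ggtccagcacTTCCAGGAAcaccccgcac
Gm46952: cacaggctttTTCCTAGAAgggccctaaa
Zcwpw2: ggcttccggtTTCCTCGAAgacgccaccg
Etv6: agtttctctcTTCCAGGAAggaaaacatt
For comparison, 3 of the 5 windows with a match under higher shared peaks are shown. They belong to Cish, an inhibitor of STAT5 signalling (97 tags, chr9:107296659-107296667, plus strand), Scfd2, a vesicle traffic gene (86 tags, chr5:74531894-74531902, minus strand), and Igfals, the gene of an IGF carrier in blood (16 tags, chr17:24878173-24878181, plus strand). The Igfals match is the same site, read on the other strand, as that of Gm41549, a gene model.
Cish: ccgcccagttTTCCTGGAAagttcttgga
Scfd2: tttcaattctTTCCTAGAAagctgctgcc
Igfals: ctgccaggtgTTCCTAGAAgaggccctgg
The 9-base match at Zfp458 has the same letters as the match at Cish, and the match at Gm46952 the same letters as those at Scfd2 and Igfals. The flanking bases differ in each case.

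Promoters under low unpartnered peaks held the BCL6 core more often than other promoters. The core stood in 6 of 67 windows (8.96%, Wilson 95% interval 4.17 to 18.2%), against 506 of 32733 windows without any perigonadal peak (1.55%) and 522 of all 32851 windows (1.59%). The difference from windows without a peak was 7.41 percentage points (Newcombe 95% interval 2.62 to 16.6). Counted by gene, 6 of 63 genes had a match (9.52%), against 502 of 27025 in all (1.86%). All intervals of shares in the text cover counting error only, since reads counted without molecular identifiers need not be independent, and some windows overlap.

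Taller peaks had higher shares, although few of them reached a promoter window. The core stood in 4 of 28 windows under higher unpartnered peaks (14.3%, 5.70 to 31.5%) and in 5 of 21 under higher shared peaks (23.8%, 10.6 to 45.1%). Those 21 windows lay under 19 peaks. The windows of Igfals and Gm41549 hold the same site, counted in both for either motif, so the matches under higher shared peaks are not all separate sites. Low unpartnered peaks were 14.9 points below the higher shared peaks, with an interval of -36.7 to 1.24 that includes 0. For the wider palindrome the shares were 16.4% (11 of 67) for low unpartnered, 21.4% for higher unpartnered and 42.9% for higher shared peaks, against 8.30% of all windows. That palindrome differed from the higher shared peaks by -26.4 points (-48.2 to -5.20).

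Within the low unpartnered peaks, the core stood in 4 of 26 windows at 11 or 12 tags (15.4%, 6.15 to 33.5%) and in 2 of 41 windows at 10 tags or fewer (4.88%, 1.35 to 16.1%). These intervals overlap. The 6 core matches all lay inside the stretch covered by the peak, which on average took up 37.2% of a window, and between 20 and 64 bases from the centre of the peak. Of the 13 matches to the wider palindrome in the same windows, 9 lay inside the peak. The promoters themselves were rich in G and C, with a median of 59.7% and 21.0 CpG pairs per window, against 52.7% and 7 over all windows. Windows under higher unpartnered peaks had 61.8% and 22, and those under higher shared peaks 56.3% and 12. The part of base composition in the motif shares was not tested.

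**Figure D1:**
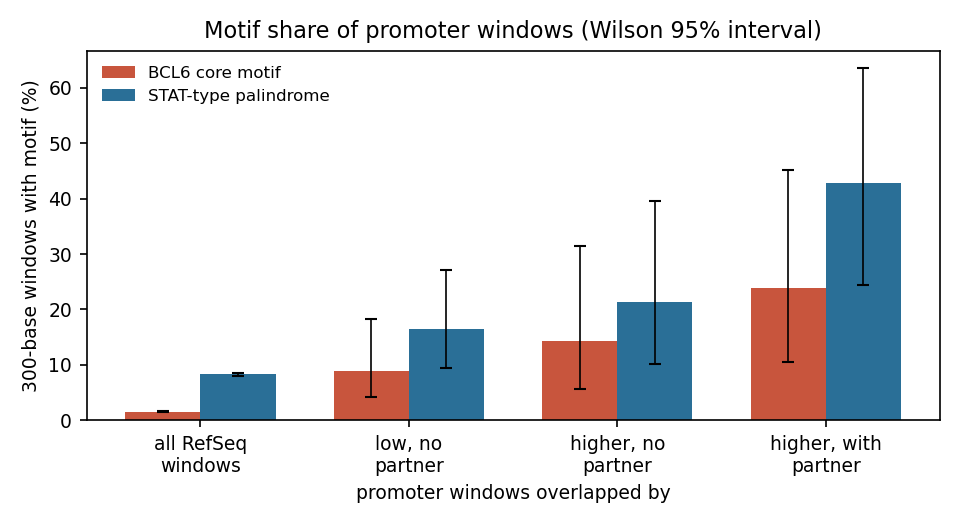
Share of 300-base RefSeq promoter windows (y axis, percent) that hold the BCL6 core (red) or the STAT-type palindrome (blue), for all windows and for windows overlapped by low peaks without partner, higher peaks without partner and higher peaks with partner; lines are Wilson 95% intervals. Windows under low unpartnered peaks hold the core in 8.96% of cases, between 1.59% for all windows and 23.8% for higher shared peaks.

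One low unpartnered peak, of 11 tags at chr15:29713317-29713501, covered the whole hairpin of a microRNA. The mature strand, from the RefSeq table, is printed with its seed (bases 2 to 8) in capitals.
mmu-miR-3964: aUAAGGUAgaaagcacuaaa
The hairpin spans chr15:29713331-29713404 on the minus strand.

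The low unpartnered peaks lay close to the lowest heights at which peaks were listed. The deposited scores lay between 5.29 and 10.6 around a median of 8.82, which correspond to 6, 12 and 10 tags, since every score was a whole multiple of 0.882. At 10 tags the exact Poisson 95% interval is 4.80 to 18.4 tags, so that counting error alone spans the whole class. Exactly 10 tags were held by 1371 of the peaks (47.1%), 9 tags by 534, 11 by 523, 12 by 284, 8 by 183 and 7 by 16. A single peak had 6 tags, in intron 2 of 23 of Oca2, a pigment gene, at chr7:56273085-56273269 and in an L1M4c LINE repeat.

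Peaks on either side of the limit differed by a single tag. Just inside it, peaks of 12 tags with a score of 10.6 lay 24 bp from the promoter of Taf5l, a subunit of histone acetyltransferase complexes, 61 bp from that of Lhx3 and 90 bp from that of Zfp407, a zinc finger gene. Just outside it, peaks of 13 tags with a score of 11.5 lay 65 bp from the promoter of Proc, the protein C gene, 81 bp from that of Slc26a6, an anion exchanger gene, and 141 bp from that of Fignl1, a DNA repair ATPase gene. The lowest ones nearest to promoters had 7 tags and lay 1745 bp from Olfm3, an olfactomedin gene, 5712 bp from Mir6903 and 8011 bp from Mrln, which encodes a muscle micropeptide. The share of perigonadal peaks with an inguinal partner was 2.14% at 8 tags, 2.55% at 9, 1.93% at 10, 4.21% at 11, 8.39% at 12, 13.9% at 13 and 24.8% at 14. Partner status was part of the choice, and these values show only where the limit falls along that slope.

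**Figure D2:**
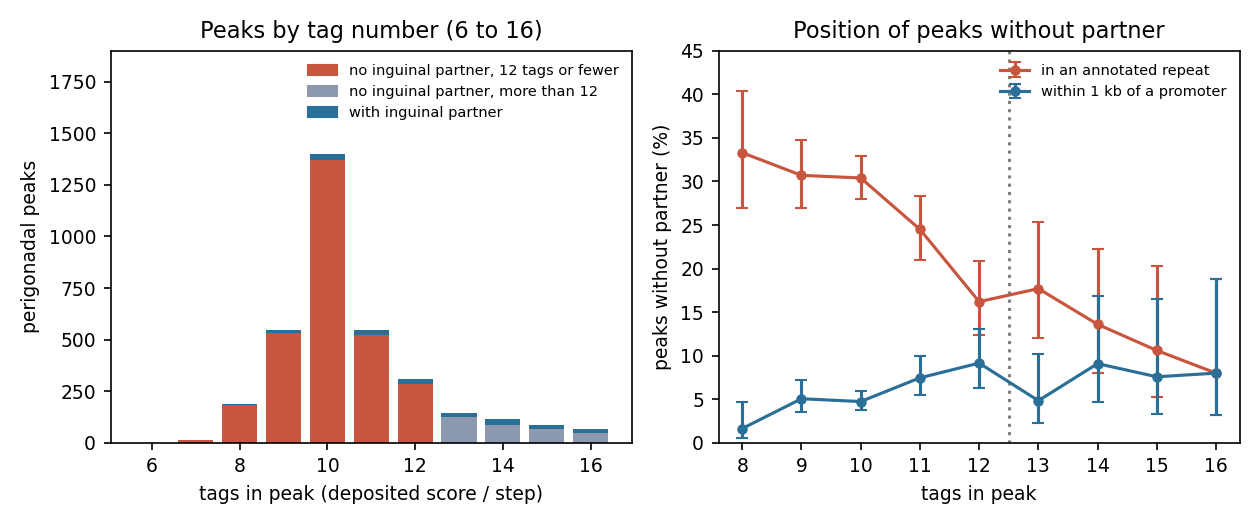
Left, number of perigonadal peaks (y axis) by tags per peak (x axis, deposited score divided by its step), split into low peaks without partner (red), higher peaks without partner (grey) and peaks with an inguinal partner (blue). Right, percent of the peaks without partner that lie in an annotated repeat (red) or within 1 kb of a promoter (blue) at each tag number, with Wilson 95% intervals and a dotted line at the limit; repeats fall from 33.3% at 8 tags to 16.2% at 12 tags while promoters go from 1.64% to 9.15%.

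Among the features of position compared, repeats gave the largest difference between low unpartnered and taller peaks. Of the 2912 peaks, 823 lay in an annotated repeat (28.3%, 26.7 to 29.9%), against 11.9% of higher unpartnered and 11.8% of higher shared peaks. The differences were 16.3 percentage points (12.9 to 19.3) and 16.4 points (12.6 to 19.7). Low peaks with an inguinal partner had 16%, a difference of 12.3 points (3.44 to 18.6), at 8 to 12 tags. The low unpartnered peaks of the inguinal list, 975 peaks of 9 to 12 tags, had 27.6%, and the difference of 0.673 points had an interval of -2.63 to 3.86.

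By class, 272 of the peaks lay in LTR elements (9.34%), 261 in SINEs (8.96%), 233 in LINEs (8.0%), 33 in DNA transposons and 24 in other repeats. LTR elements are remnants of retroviruses, and LINEs and SINEs are long and short elements that spread by copying through RNA. The family with the most peaks was L1, with 212 (7.28%, against 1.31% of higher unpartnered and 4.11% of higher shared peaks). ERVL-MaLR followed with 137 (4.70%, against 1.87% and 1.21%). The SINE families B4, Alu and B2 held 83, 81 and 62 of the low unpartnered peaks, and no higher shared peak lay in Alu or B2. For those families a count of 0 in 414 peaks has a Wilson upper limit of 0.919%. The single elements named most often were B3 with 33 peaks, B4A with 30, ID_B1 and RSINE1 with 20 each and Lx7 with 18. No single element therefore held more than 1.13% of the peaks. The repeat share of the mm10 genome was not computed here, so the shares are set only beside other peaks.

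**Figure D3:**
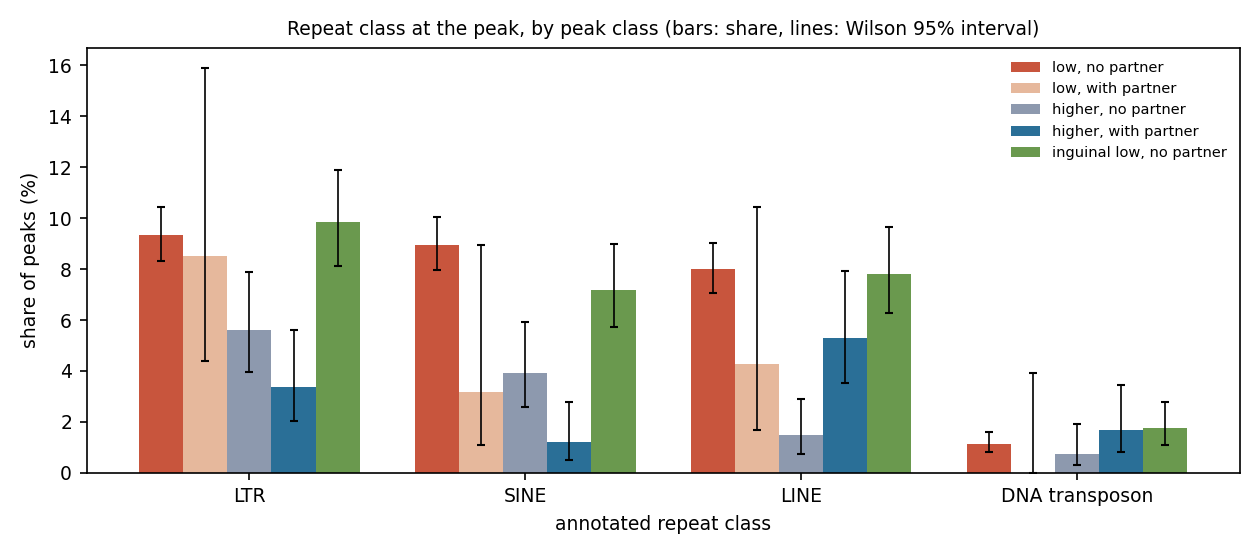
Share of peaks (y axis, percent) annotated to LTR, SINE, LINE and DNA transposon repeats (x axis) in low perigonadal peaks without partner, low peaks with partner, higher peaks without and with partner, and low inguinal peaks without partner; lines are Wilson 95% intervals. Low unpartnered peaks of the perigonadal list lie near those of the inguinal list in each class, and their SINE share of 8.96% is above those of both higher classes.

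Repeat and promoter shares moved in opposite directions with tag number among peaks without partner. In repeats lay 31.6% at 9 tags or fewer (28.3 to 35.1%), 30.4% at exactly 10, 21.6% at 11 or 12 (18.9 to 24.5%), 13.7% at 13 to 16 and 9.13% above 16. Within 1 kb of a promoter lay 4.09% (2.88 to 5.77%), 4.74%, 8.05% (6.37 to 10.1%), 7.01% and 11.1% at the same heights. The peaks of 11 or 12 tags therefore had a promoter share whose interval covers that of the peaks just above the limit. Repeat names come from the authors' annotation. Low unpartnered peaks annotated to promoters of protein-coding genes carried no repeat name in it, so the repeat and promoter shares were not independent.

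Most low unpartnered peaks lay in introns or between genes, as did the taller ones. Introns held 1393 of them (47.8%, 46.0 to 49.7%) and intergenic positions 1240 (42.6%, 40.8 to 44.4%), with 111 annotated to promoters, 69 to exons and 47 to gene ends. Their intron share differed from that of higher shared peaks by 4.84 points (-0.300 to 9.86) and from higher unpartnered peaks by 1.75 points (-2.85 to 6.31). Of the intronic ones, 384 lay in the first intron (27.6%, 25.3 to 30.0%), against 38.2% of the intronic higher shared peaks, a difference of -10.6 points (-18.3 to -3.41). Of the intronic higher unpartnered peaks 33.6% did, a difference of -6.04 points with an interval of -12.6 to 0.0578 that includes 0. Low inguinal peaks without partner had 29.9% in the first intron, a difference of -2.29 points (-7.04 to 2.25). Low perigonadal peaks with a partner had 40.9% (18 of 44), a difference of -13.3 points (-28.2 to 0.0957).

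By the authors' distance, low unpartnered peaks were farther from promoters than higher peaks, but not than the other low peaks. Within 1 kb of the authors' nearest promoter lay 160 (5.49%, 4.72 to 6.38%), against 8.58% of higher unpartnered peaks, a difference of -3.09 points (-5.87 to -0.820). Higher shared peaks had 7.73%, and there the interval of the difference, -5.31 to 0.139, included 0. Measured to RefSeq starts, 5.70% of low and 6.90% of higher unpartnered centres lay within 1 kb, and the interval of that difference, -3.79 to 0.859, included 0 as well. Beyond 100 kb lay 24.2% of low unpartnered peaks, against 15.1% of higher unpartnered (9.10 points more, 5.48 to 12.3) and 17.6% of higher shared peaks (6.58 points more, 2.33 to 10.3). The median distance was 32.8 kb (order-statistic 95% interval 30.4 to 35.1 kb), against 24.4 and 25.4 kb. Low peaks with an inguinal partner had a median of 37.7 kb, with 25.5% beyond 100 kb. Low inguinal peaks without partner had 32.6 kb and 23.3%. The intervals of the differences beyond 100 kb, -11.1 to 6.57 and -2.22 to 3.93 points, included 0.

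Relative to chromosome length, low unpartnered peaks were more frequent in genes and near their starts. Protein-coding genes, from end to end, cover 39.4% of the 2612.2 Mb considered, and 55.4% of the low unpartnered peaks had their centre in one (53.6 to 57.2%). Stretches within 1 kb of a RefSeq start make up 2.12% of that length and held 5.70% of the peaks (4.92 to 6.60%). Those within 5 kb make up 9.63% and held 17.1% (15.8 to 18.5%). Genes of 200 kb or more make up 16.1% and held 17.6% (16.2 to 19.0%), an interval just above that share. The length includes the X chromosome, which has 170.7 Mb but only 18 of the peaks. Shares of the autosomes alone were not computed. In higher shared peaks 48.6% of centres lay in a gene and 12.1% in one of 200 kb or more, so that the low unpartnered peaks had 6.84 points more (1.71 to 11.9) and 5.51 points more (1.76 to 8.64). In higher unpartnered peaks the shares were 52.8% and 14.9%, and the differences of 2.59 points (-1.97 to 7.19) and 2.66 points (-0.873 to 5.77) had intervals that include 0. Low inguinal peaks without partner had 56.6% in a gene, a difference of -1.22 points (-4.80 to 2.39). Which of the peaks are BCL6 sites and which are background of the precipitation cannot be told apart from the lists alone.

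Chromosomes carried low unpartnered peaks at similar densities, with the X chromosome apart. On the 19 autosomes the density ran from 0.850 per Mb on chromosome 14 to 1.53 on chromosome 19 with a median of 1.19, so the highest was 1.80 times the lowest. That ratio was 3.48 for higher unpartnered and 4.01 for higher shared peaks, which rest on fewer peaks per chromosome. Density went with protein-coding genes per Mb, with a Pearson r of 0.51 and a Spearman rho of 0.44 over the 19 autosomes, against 0.38 and 0.24 for higher unpartnered and 0.14 and 0.17 for higher shared peaks. With the 200 peaks of 8 tags or fewer alone, the Pearson r was 0.18. All chromosomes share the library, and no p-value is attached. The X chromosome held 18 low unpartnered peaks in 170.7 Mb, or 0.105 per Mb. It was also poor in higher shared peaks, with 7, and in low inguinal peaks without partner, with 3.

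**Figure D4:**
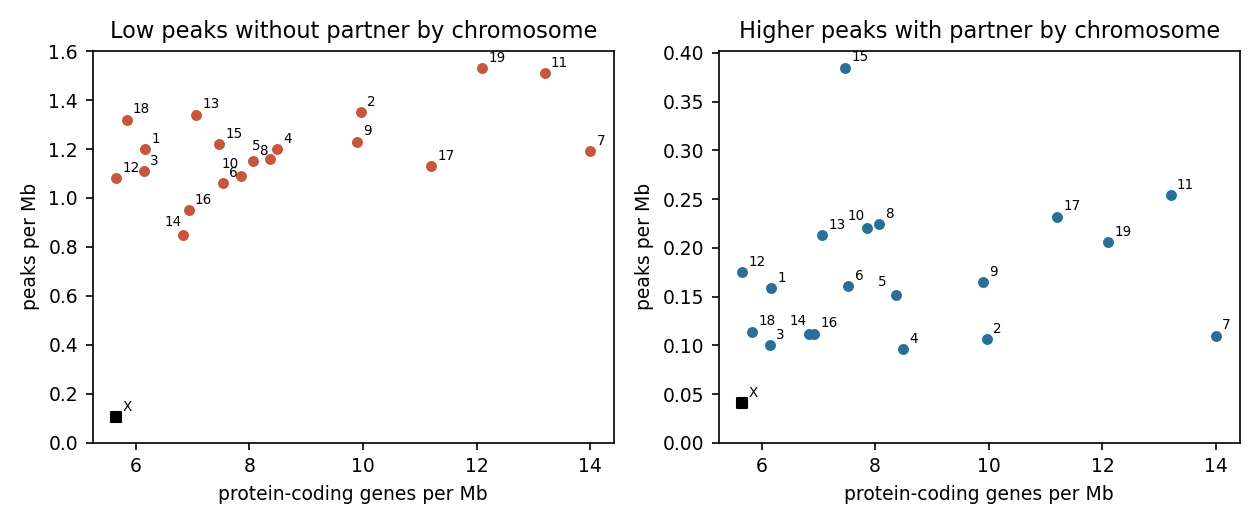
Peaks per Mb (y axis) against protein-coding genes per Mb (x axis) for each chromosome (numbered points; X as a black square), for low perigonadal peaks without partner (left) and higher peaks with partner (right, on its own scale). Autosomes lie between 0.850 and 1.53 low unpartnered peaks per Mb and X at 0.105.

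Few low unpartnered peaks had a close neighbour. Within 10 kb of an inguinal peak lay 88 (3.02%, 2.46 to 3.71%) and within 50 kb 283 (9.72%, 8.70 to 10.8%), against 5.78% and 19.0% of higher unpartnered peaks. Within 50 kb of a perigonadal peak of more than 12 tags lay 189 (6.49%, 5.65 to 7.44%), against 11.9% (9.46 to 15%) of higher unpartnered peaks. Another peak of the same class lay within 50 kb of 466 (16%).

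The low unpartnered peak nearest to an inguinal one, without touching it, had its centre 205 bp away. It had 12 tags and lay at chr15:79380148-79380332, upstream of Mir1943, beside an inguinal peak of 17 tags. The next lay 350 bp from an inguinal peak of 41 tags in an intron beside Mthfd1l, a mitochondrial folate enzyme gene, 360 bp from one of 18 tags near Plxnc1, a semaphorin receptor gene, 564 bp from one of 25 tags in intron 2 of Zswim6, and 575 bp from one of 11 tags near the olfactory receptor gene Olfr750. With peak centres within 1000 bp counted as shared, such peaks leave the class, and no share moved beyond its interval.

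Among themselves, the closest pair lay 578 bp apart at the promoter of Phlpp2, which encodes a phosphatase of Akt, with 10 tags each (chr8:109867954-109868138 and chr8:109868532-109868716). The next pairs lay 686 bp apart at the end of Tmem107, a ciliary gene, with 11 tags each, 957 bp apart upstream of Igfbp3, an IGF binding protein gene, with 10 and 9 tags, and 1295 bp apart near Ccar1, a coactivator gene, with 10 and 9 tags.

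Low unpartnered peaks were spread over many genes with 1 peak each. Of 21887 protein-coding genes, 1448 had a low unpartnered peak within 50 kb when the authors' nearest promoter was theirs (6.62%), and 621 had one within 10 kb (2.84%). When genes that span a peak or end within 50 kb of it were counted, there were 4177 (19.1%). An inguinal peak within 50 kb was found for 931 genes (4.25%) and a perigonadal peak of more than 12 tags for 529 (2.42%). A single low unpartnered peak was held by 1360 of the 1448 genes, 2 peaks by 79, 3 by 6 and 4 or more by 3. The genes were long, with a median length of 37.0 kb against 17.2 kb for all, and so were their territories (the gene with its share of the gap on either side), 86.6 against 46.8 kb. Genes with a higher perigonadal peak were long as well, at 31.9 kb, with territories of 78.0 kb.

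The genes with most low unpartnered peaks were Prickle2, Dapk1 and Tenm4, with 4 each. Prickle2, a planar cell polarity gene, had them at 12, 11, 10 and 10 tags, all in intron 2 of its transcripts and up to 45.7 kb from a promoter, the tallest at chr6:92450240-92450424. Dapk1, a kinase gene of cell death, had them at 12, 11, 10 and 9 tags, 2 upstream and 2 in intron 2 of 25, the tallest at chr13:60635764-60635948, and it also had 2 higher perigonadal and 2 inguinal peaks. Tenm4, which encodes a teneurin adhesion protein, had them at 11, 10, 10 and 9 tags around its start, the tallest at chr7:96219383-96219567. Trp63, the p63 gene of epithelial development, had 3 at 12, 11 and 10 tags, Fbn1, the fibrillin gene of microfibrils, 3 at 12, 10 and 8, and Pou2f1, a homeobox factor gene, 3 at 11, 10 and 9. Repeats lay under 1 of the 4 peaks at Prickle2, 2 at Dapk1 and 1 at Tenm4, under 2 of the 3 at Pou2f1 and under none of those at Trp63 and Fbn1. All 6 genes are long, from 138 kb for Pou2f1 to 740 kb for Tenm4.

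Genes near a low unpartnered peak had another peak more often than other genes did. An inguinal peak within 50 kb was found for 129 of the 1448 genes (8.91%, 7.55 to 10.5%; 13.9% of the genes with an inguinal peak), against 3.92% of the other protein-coding genes (3.67 to 4.20%). A higher perigonadal peak was found for 75 (5.18%, 4.15 to 6.44%), against 2.22%. The genes differ in territory, so the shares with an inguinal peak were also taken within 4 groups of genes of equal number, ordered by territory. In the group with the smallest territories they were 1.63% against 1.80%, then 4.0% against 3.10%, 11.3% (8.56 to 14.7%) against 4.60% (4.06 to 5.21%), and 11.6% (9.24 to 14.3%) against 6.41% (5.76 to 7.14%) in the largest. The intervals were apart in the groups with the larger territories and overlapped in the smaller ones. For a higher perigonadal peak, the shares were 2.17% against 1.19% in the smallest territories, then 1.6% against 1.78%. In the larger ones they were 7.11% (4.99 to 10.0%) against 2.67% (2.26 to 3.15%), and 6.27% (4.6 to 8.49%) against 3.35% (2.88 to 3.89%). There too the intervals were apart only in the groups with the larger territories. For 1283 genes (88.6%) neither an inguinal nor a higher perigonadal peak was found within 50 kb.

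At promoters of protein-coding genes, the peaks with most tags had 12 and lay at genes of varied function. After Taf5l, Lhx3 and Zfp407 came Slc9a3r1, which encodes a scaffold of membrane proteins (150 bp from the start, in the 5′ UTR of exon 1 of 6), Pdzrn3, a ubiquitin ligase gene (158 bp upstream), and Hivep1 (244 bp upstream). Pgm5, a phosphoglucomutase-like gene, Septin7, a septin gene, Cdh11, a cadherin gene of mesenchymal cells, and Sytl1, a vesicle docking gene, had theirs within 363 to 380 bp. Polm, a DNA polymerase gene, and 0610010F05Rik followed at 422 and 457 bp. Of these 12 promoters, those of Lhx3 and Hivep1 also had an inguinal peak assigned within 50 kb, and none had a higher perigonadal peak.

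Among the 23 lists, which were chosen with earlier results of these data known, insulin signalling genes had low unpartnered peaks at the highest share. Within 50 kb, 10 of 22 had one (45.5%, 26.9 to 65.3%), against the 6.62% of all protein-coding genes, and within 10 kb 7 of 22 against 2.84%. When genes that span a peak or end within 50 kb of it were counted, the numbers were 11 of 22 against 19.1%. The list was not high in low unpartnered peaks alone. Within 50 kb, 5 of 22 genes had a higher perigonadal peak, against 2.42% of all genes, and 4 had an inguinal peak, against 4.25%. The low unpartnered peaks of the list had 9 to 11 tags. Pdpk1, the kinase that activates Akt, had 11 tags 1.51 kb from its promoter in a RSINE1 repeat (chr17:24149324-24149508). Foxo1, the transcription factor that insulin restrains, had 11 tags in intron 1 of 2 at chr3:52273468-52273652, and its relative Foxo3 11 tags in intron 2 of 3. Trib1, a pseudokinase gene of the tribbles family, had 10 tags 0.209 kb upstream, on its promoter (chr15:59648353-59648537).

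Slc2a4, the insulin-responsive glucose transporter gene, had a peak of 10 tags 2.33 kb upstream in a B3 repeat, and Irs1 and Irs2, substrates of the insulin receptor, had 10 tags 2.84 and 13.1 kb upstream. Grb10, an adaptor that restrains the receptor, had 10 tags in intron 1, Pik3r1, the regulatory subunit of PI3 kinase, 10 tags in intron 2, and Insr, the receptor gene, had 3 peaks of 10, 10 and 9 tags. Of the 10 genes, 7 had no inguinal or higher perigonadal peak within 50 kb, against 88.6% of all genes with a low unpartnered peak. Insr, Grb10 and Trib1 made up the rest of the 10. The genes of the list are large, with a median territory of 205 kb, and among all genes in the group with the largest territories 11.1% had a low unpartnered peak. The part of territory in the count was not tested. With 11 or 12 tags alone, 3 of the 10 genes keep a peak, namely Pdpk1, Foxo1 and Foxo3.

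Growth hormone and STAT5 signalling, whose target sites resemble those of BCL6, had 1 of 18 genes with a low unpartnered peak (5.56%, 0.988 to 25.8%), which is near the background, and 7 of 18 had a higher perigonadal peak, against 2.42% of all genes. When spanning genes were counted, 5 of 18 had a low unpartnered peak, against 19.1% of all. That 1 gene was Stat3, with 9 tags in intron 2 in a RSINE1 repeat. Corepressors and histone deacetylases, the partners of BCL6, had 2 of 16, among them Mta3, a subunit of the NuRD complex, with 8 tags 1.62 kb upstream. Of the genes known as BCL6 targets in lymphocytes, 1 of 20 had one, Irf4, a plasma cell factor gene, with 12 tags 33.6 kb upstream. The intervals of these 3 lists include the background.

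Metabolic genes of the adipocyte had low unpartnered peaks in several lists, to be read against 6.62% of all protein-coding genes. Of the adipocyte identity list 5 of 20 had one (25%, 11.2 to 46.9%). Lpl, the lipoprotein lipase gene, had 12 tags in intron 1 at chr8:68886856-68887040, Cebpb, a factor of adipocyte differentiation, 10 tags 2.92 kb upstream, Lep, the leptin gene, 10 tags in intron 2, and Ebf1 10 tags in intron 6, besides Slc2a4. Fatty acid oxidation and thermogenesis had 4 of 18 (22.2%, 9.0 to 45.2%). Pdk4, which restrains pyruvate oxidation, had 10 tags on its promoter (chr6:5496544-5496728), Ppargc1a, the coactivator of mitochondrial genes, 10 tags 1.79 kb into the gene, Cpt1a, the gate of mitochondrial fat uptake, 10 tags 2.93 kb upstream, and Dio2, the thyroid hormone activating deiodinase, 9 tags in the 3′ UTR.

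None of those 4 oxidation genes had an inguinal or higher perigonadal peak within 50 kb, as was so for 88.6% of all genes with a low unpartnered peak. Lipogenesis had 4 of 22 (18.2%, 7.31 to 38.5%): Me1, malic enzyme, with 12 tags in a MLT2D repeat, the peaks nearest to Srebf1, the lipogenic transcription factor, with 11 tags, Acly, ATP citrate lyase, with 10, and Scd1, the stearoyl-CoA desaturase, with 10 in its 3′ UTR. All were over 10 kb from the promoter. Lipolysis had 1 of 16, Adcy3, an adenylate cyclase, with 11 tags in intron 2, which is a share of 6.25% and near the background. When spanning genes were counted, lipogenesis had 5 of 22, adipocyte identity 7 of 20, oxidation 9 of 18 and lipolysis 6 of 16. Of all genes 19.1% did. Their median territories are 107, 59.9, 58.7 and 125 kb. Among all genes, 7.46% had a low unpartnered peak in the group with a median territory of 69.4 kb, and 11.1% in that with 236 kb.

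Nuclear receptor genes had low unpartnered peaks at 5 of 23 (21.7%, 9.66 to 41.9%), none within 10 kb. They were Esr1, the oestrogen receptor gene, with peaks of 12 and 11 tags, Rxrg, a retinoid X receptor gene, with 10, Nr2c2 with 10, Rarb, a retinoic acid receptor gene, with 10, and Nr2f1 with 9, the last 3 in repeats. Clock genes had 3 of 18 (16.7%, 5.84 to 39.2%): Per2, a core repressor, with 12 tags 1.42 kb into the gene (chr1:91457818-91458002), Arntl, which encodes BMAL1, with 11 and 9, and Rora, its activator, with 10. Extracellular matrix had 3 of 20, Lamb1 and Col5a3 with 12 tags each and both in repeats, and Col3a1 with 9. Inflammation had 3 of 22, Irf4 with 12, Tlr4, the endotoxin receptor gene, with 9 and 9, and Tnfaip3, an NF-kappaB inhibitor, with 9, the Tlr4 and Tnfaip3 peaks all in repeats. The intervals of the clock, matrix (5.24 to 36%) and inflammation (4.75 to 33.3%) lists include the 6.62% of all genes. That of the nuclear receptor list lies above it. The nuclear receptor genes have a median territory of 218 kb. In the group of genes with the largest territories 11.1% had a low unpartnered peak, and the part of territory was not tested. When spanning genes were counted, 6 of 23 nuclear receptor genes had one, against 19.1% of all.

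Receptor genes of sensory neurons had few low unpartnered peaks, and marker lists of other cells had counts that cannot be told from the background. Of the marker genes, 1 of 8 adipocyte markers (Lep) and 1 of 8 preadipocyte and fibroblast markers (Col3a1) had a low unpartnered peak, and none of 8 macrophage, 8 lymphocyte, 7 endothelial and 7 mesothelial or epithelial markers. For lists of 7 or 8 genes a count of 0 has a Wilson upper limit of 35.4 or 32.4%. Binding near a marker does not measure its expression, so these counts do not check the purity of the nuclei. Olfactory receptor genes, which are expressed in sensory neurons, had one at 19 of 1107 (1.72%, 1.10 to 2.67%), and vomeronasal receptor genes at 3 of 353 (0.850%, 0.289 to 2.47%). Both intervals lie below the 6.62% of all protein-coding genes. These genes had few other peaks as well. A higher perigonadal peak was found for 2 of the 1107 olfactory and 0 of the 353 vomeronasal genes, against 2.42% of all genes. An inguinal peak was found for 4 and 2, against 4.25% of all. The olfactory and vomeronasal genes have median territories of 22 and 45.5 kb. Among all genes ordered by territory, 3.36% had one in the group with the smallest territories (median 12.9 kb) and 4.57% in the next (median 32.2 kb).

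Synaptic receptor and adhesion genes, with a median territory of 1540 kb, had 1 of 22, at Nlgn1, and 8 of 22 when genes that span a peak or end within 50 kb of it were counted, against 19.1% of all genes. Zinc finger genes named Zfp had 18 of 394 (4.57%, 2.91 to 7.11%), solute carrier genes 25 of 375 (6.67%, 4.56 to 9.66%; Slc9a3r1, caught by its name, encodes no carrier) and cytosolic ribosomal protein genes 1 of 43. The intervals of the zinc finger and solute carrier genes cover the background. Over the lists given by gene names rather than by a shared prefix, 41 of 288 genes (14.2%) had one.

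**Figure D5:**
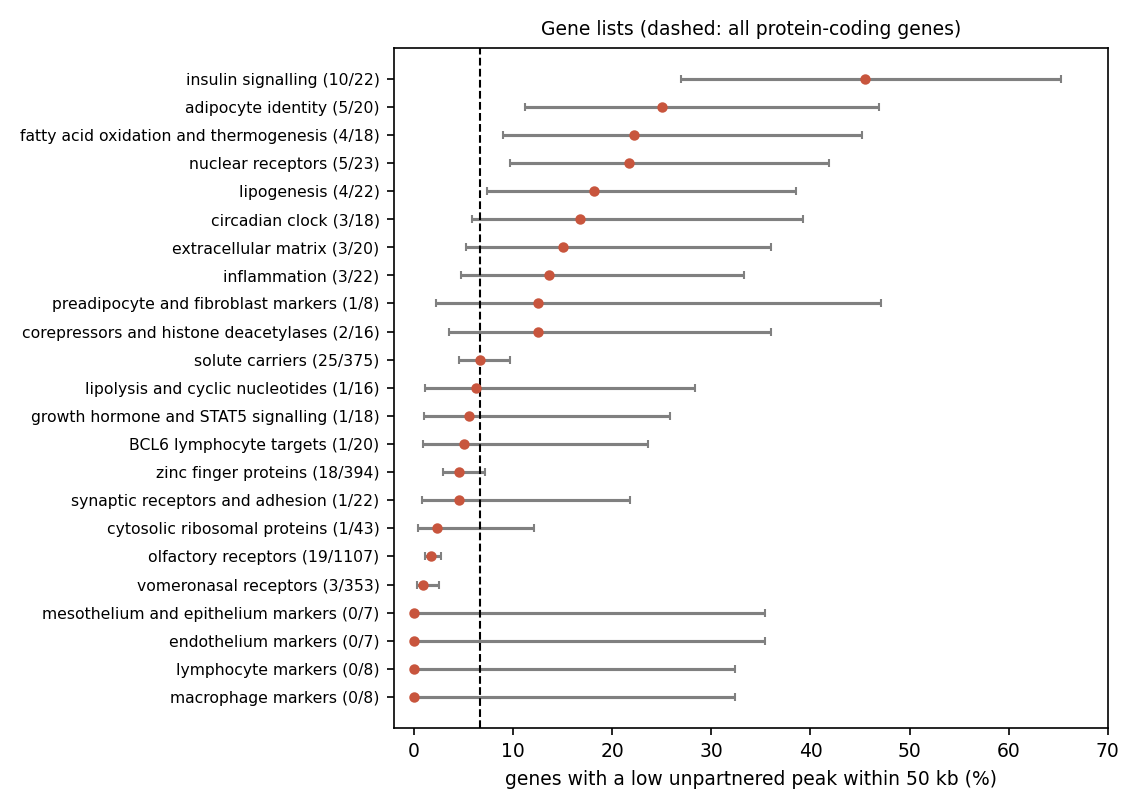
Percent of the genes of each list (x axis; lists with counts on the y axis) that have a low perigonadal peak without inguinal partner within 50 kb, with Wilson 95% intervals; the dashed line is the 6.62% of all protein-coding genes. Among these lists, chosen with earlier results of these data known, insulin signalling is highest at 45.5%. Olfactory and vomeronasal receptors lie below the line at 1.72% and 0.850%.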

How the data were processed

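Bowtie 1.2, HOMER and the mm10 build are named in the submitters' processing notes. The deposited peak score is the authors' value for each peak of its list. All scores were whole multiples of 0.882 (perigonadal) or 0.752 (inguinal) within the rounding of the deposited values, and a step was read as 1 tag. The depth is unknown. The inguinal header names a false discovery rate of 0.001, and the perigonadal header names none, so the calling limits may differ. The deposited focus ratio is a fraction describing how tags lie around a peak centre, per the file headers; its median was 0.833 for the low unpartnered peaks, 0.833 for higher unpartnered and 0.857 for higher shared peaks. Peak position, nearest promoter and repeat annotation are also the authors' values. Peaks span 184 bp (perigonadal) and 202 bp (inguinal) from start to end.

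Overlaps, Wilson and Newcombe 95% intervals and motif counts were computed in Python 3.11.15 (pandas 2.3.3, scipy 1.17.1) and tested on simulated data. Each depot has 1 library, so no p-value is given. Genes came from a RefSeq table of GRCm38.p6. The 23 gene lists and the class itself were chosen with earlier results of these data known. Named are, per list, up to 4 genes with the tallest low unpartnered peaks; the 12 protein-coding promoters (within 1 kb) with most tags; the 6 genes with most such peaks; the 4 closest pairs; the 5 nearest to an inguinal peak; and 3 just inside, 3 just outside the limit and 3 lowest by distance to a promoter. The peaks with motif matches, the higher shared peaks beside them, the 6-tag peak, the microRNA and further genes that complete a list's count were chosen after their values were seen. A few items that the rule takes in are not reported here.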

Additional observations from a re-analysis of the deposited data

How the results depend on the processing

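Height was the choice that moved most values, and it also shaped the class. At 8 tags or fewer 200 peaks remained, with 1.5% within 1 kb of a promoter, 34.0% in repeats, 50% intergenic, a median distance of 55.9 kb, 82 protein-coding genes, 1 gene of the named lists, a motif share of 0% that rests on 1 window and says nothing of the motif, and 7.5% within 50 kb of an inguinal peak. At 11 or 12 tags there were 807 peaks, and the same values were 8.05%, 21.6%, 37.5%, 28.5 kb, 441 genes, 14 genes and, near inguinal peaks, 11.2%; the intron share was 50.3%. At 10 tags or fewer the promoter, repeat and intergenic shares were 4.51%, 30.8% and 44.5%. Outside repeats, 7.56% lay within 1 kb of a promoter and 37.6% were intergenic. The promoter value is tied to the annotation, in which peaks annotated to promoters of protein-coding genes carried no repeat name. With a 5 kb promoter window the share was 16%. Assignment within 10 kb gave 621 genes and 17 genes of the named lists, and counting spanned genes gave 88 of them. The other 60 comparisons of summary values, among them those with an overlap of 50% of the shorter peak, centres within 1000 bp and autosomes alone, stayed within the 95% interval of the reported value, or within 1.5 times for counts. For the correlation of density with genes over 19 autosomes that interval is wide, and r was 0.176 at 8 tags or fewer against 0.512. No paired analysis was possible because each depot has a single BCL6 library. The unknown depth, the single library and the unused input libraries limit what the lists can show.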

Other observations

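The deposited peak names carry a running number within each chromosome, and not every number is present. The perigonadal list held 3956 of 7206 numbers up to the highest on each chromosome (54.9%). On autosomes the share ran from 46.0% on chromosome 11 to 61.3% on chromosome 6, and on the X chromosome 30 of 37 numbers (81.1%) were present. The missing numbers were not analysed here.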
